A study of Mus musculus with 9 samples.

Results

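The levels of 8 genes of hepatic glucose handling, of 22380 protein-coding genes annotated in GENCODE M1, were followed in AML12 cells. They are *Gckr*, *Khk*, *Pklr*, *G6pc*, *Pck1*, *Fbp1*, *Pygl* and *Gys2*. They were chosen by name, with earlier results of these data known and with the position of *Gckr* in the authors' own comparison among the values that led to the choice. Their values are therefore given as a description, without a test. AML12 is a line of hepatocytes established from the liver of a mouse transgenic for human TGF-alpha, and it stands for liver cells only as far as a dividing line in culture does. All cells were grown with 10% fetal bovine serum, an insulin, transferrin and selenium supplement (ITS) and 0.1 μM dexamethasone, a glucocorticoid. There were 3 libraries of cells labelled control, 3 of cells on day 5 with lentivirus carrying *Srrm2* shRNA 1, and 3 on day 5 with *Srrm2* shRNA 2. The labels give no day for the control cells. *Srrm2* encodes a scaffold protein of nuclear speckles (NSs), nuclear bodies rich in splicing factors.

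The values used were the mean normalized counts of the authors' 2 tables, 1 for shRNA 1 with control and 1 for shRNA 2 with control. Each is a single mean over control and hairpin libraries together, from read counts divided by a size factor for each library. No value per library was used, so levels have no spread here, and the control and knockdown cells cannot be told apart in them. The table of shRNA 1 lists 13424 genes with means summing to 6144608, and that of shRNA 2 lists 13478 genes with means summing to 6393456. The lowest mean listed is 1.56 in the first and 1.92 in the second. *Srrm2* itself had means of 3428 and 3759, which pool control and depleted cells and so do not check the knockdown.

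In the liver, glucose is trapped as glucose 6-phosphate, and Gckr is a regulatory protein that restrains this entry between meals. Glycolysis ends at pyruvate kinase, and ketohexokinase (Khk) brings fructose into the same route. In fasting, Pck1, Fbp1 and G6pc carry gluconeogenesis towards free glucose, while Pygl releases glucose units from glycogen that Gys2 had built. For most of these steps another gene encodes an enzyme of the same kind that is used in muscle, brain or most tissues. Insulin lowers and glucocorticoids raise the transcription of *Pck1* and *G6pc* in hepatocytes.

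Of the 8 genes, 3 had values in both tables, namely *Pklr*, *Khk* and *Gckr*. The other 5, *G6pc*, *Pck1*, *Fbp1*, *Pygl* and *Gys2*, were listed in neither. That is 37.5% of the genes with values, where 55.9% of all annotated protein-coding genes (12505 of 22380) were listed in both tables. All 8 have an identifier in the annotation that the authors counted on. A gene that was not listed has no value here and is not shown to be silent. How the genes in the tables were selected is not given in the sources used here. DESeq2 by default withholds an adjusted p-value from genes with a low mean and from genes with an extreme count in a library, and whether either applied to the 5 was not tested.

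Some of the sequence behind these values is shown, because a gene-level count hides which start of a gene was used. *Pklr* has a red-cell form and a liver form that begin at different first exons, and the deposited value adds both. The annotation holds 2 complete coding transcripts, of 574 and 543 codons, whose first 30 coding bases follow, with the start codon in capitals. The first is the red-cell start and the second the liver start.
Pklr-001: ATGtctgtccaagagaacgagctaccccag
Pklr-002: ATGgaagggccagcaggatacctgagacgt

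Promoter windows of RefSeq on GRCm38.p6, from 250 bases before to 50 after each start, were found for 7 of the 8 genes, all but *Gys2*. They were searched on both strands for the carbohydrate response element (ChoRE) written as CACGNG, any 5 bases and CNCGTG, to which the glucose-responsive factor Mlxipl with its partner Mlx is known to bind. The window of the second *Pklr* start holds it, beginning 170 bases before the start. Of 32851 promoter windows, 15 (0.0457%) hold it, and none of the other windows of the 8 genes does. The *Khk* window holds the shorter E-box CACGTG, which 2349 windows (7.15%) also hold. The motifs are in capitals, both on the + strand, at chr3:89136447-89136476 and chr5:30921476-30921505 of GRCm38.p6. TATAAA was found in the second *Pklr* window and in that of *G6pc*, as in 13.6% of windows. These matches are letters in a window, and no binding was measured.
Pklr ChoRE: ggacgcCACGGGGCACTCCCGTGgttcctg
Khk E-box: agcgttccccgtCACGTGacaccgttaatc

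Levels of different genes were compared per kilobase of merged exons. *Pklr* had the highest level of the 3 listed members, *Khk* came next and *Gckr* was lowest, in both tables. *Pklr* (ENSMUSG00000041237.6, chromosome 3 of mm9, 88940064 to 88950706, + strand) encodes the pyruvate kinase of liver and red cells. Its mean normalized count was 448.2 in the table of shRNA 1 and 561.5 in that of shRNA 2. Per kilobase this is 138.5 and 173.5, above 79.9% and 83.8% of the protein-coding genes listed in each table. It therefore stood in the upper part of the listed genes in both tables. Of its merged exon bases, 22.0% lie under exons of *Hcn3* on the opposite strand. The study states strand-specific libraries, but whether strand entered the counting is not given in the sources used here.

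*Khk* (ENSMUSG00000029162.9, chromosome 5, 31223929 to 31233619, + strand) encodes ketohexokinase, which phosphorylates fructose. Its mean normalized count was 116.2 with shRNA 1 and control, and 124.8 with shRNA 2 and control. Per kilobase it had 69.6 and 74.7, at percentiles 61.0 and 61.9 of the protein-coding genes, somewhat above the medians of 47.6 and 49.5 per kilobase. *Pklr* stood 1.99-fold above *Khk* per kilobase in the first table and 2.32-fold in the second.

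*Gckr* (ENSMUSG00000059434.5, chromosome 5, 31599954 to 31629673, + strand) lies 366334 bases beyond the end of *Khk*. Its mean normalized count was 15.8 in the table of shRNA 1 and 12.8 in that of shRNA 2. Per kilobase this is 7.84 and 6.39, at percentiles 17.8 and 15.6, so the gene stood low among the listed protein-coding genes. *Khk* was 8.88-fold and 11.7-fold higher per kilobase than *Gckr*, and *Pklr* 17.7-fold and 27.2-fold higher. With so low a mean, *Gckr* rests on few reads, and its spread between libraries cannot be seen in a pooled value.

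**Figure D1:**
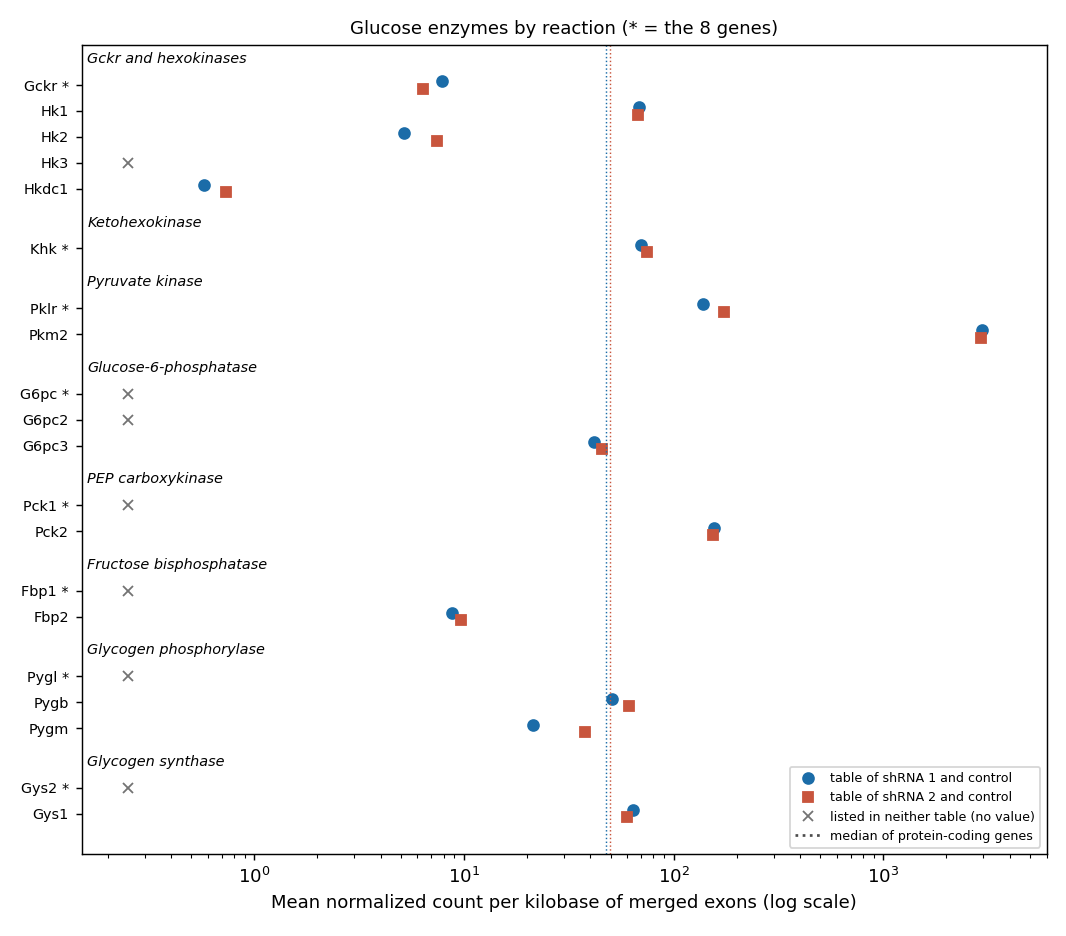
Mean normalized count per kilobase of merged exons (log scale) for the 8 genes, marked with an asterisk, and the enzymes of the same reaction. *Gckr*, which encodes a regulatory protein and no enzyme, is shown beside the hexokinases *Hk1*, *Hk2*, *Hk3* and *Hkdc1*. Circles are the table of shRNA 1 with control and squares that of shRNA 2 with control. Crosses at the left edge are genes with no value, and dotted lines are the medians of listed protein-coding genes. *Pklr* and *Khk* lie above the medians and *Gckr* below, and each of the 5 members with no value has a listed enzyme of the same reaction.

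Each of the 5 members with no value has at least 1 paralog that both tables list (5 of 5). Of the 8 paralogs considered, 7 were in both tables, where 55.9% of all annotated protein-coding genes were. For glucose-6-phosphatase, *G6pc* (ENSMUSG00000078650.2, chromosome 11, 101228875 to 101239217) had none, as did *G6pc2*, the islet form, while *G6pc3*, the form found in most tissues, had 41.5 and 45.6 per kilobase. These levels are close to the median of protein-coding genes. For phosphoenolpyruvate carboxykinase, the cytosolic *Pck1* (ENSMUSG00000027513.5, chromosome 2, 172978549 to 172984774) was not listed, and the mitochondrial *Pck2* had 155.0 and 154.1 per kilobase. *Pck2* thus stood at percentiles 82.4 and 81.4, level with *Pklr*.

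*Fbp1* (ENSMUSG00000069805.4, chromosome 13, 62966113 to 62989642), the fructose bisphosphatase of liver and kidney, was not listed, and *Fbp2*, the muscle form, had 8.78 and 9.73 per kilobase, against 7.84 and 6.39 of *Gckr*. With means of 11.6 and 12.9, *Fbp2* too rests on few reads. For glycogen phosphorylase, the liver form *Pygl* (ENSMUSG00000021069.10, chromosome 12, 71291798 to 71332475) had no value. The brain form *Pygb* had 50.7 and 61.4 per kilobase and the muscle form *Pygm* 21.4 and 37.8. For glycogen synthase, the liver form *Gys2* (ENSMUSG00000030244.7, chromosome 6, 142371133 to 142421629) had no value and *Gys1*, used in muscle and most other tissues, had 64.1 and 59.8. In all 3 of these reactions the only values were those of genes named for other tissues.

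Pyruvate kinase is the single step at which a member and its paralog both had values. *Pkm*, listed as *Pkm2*, had means of 7031 and 6999, or 2941 and 2927 per kilobase, at percentiles 99.6 and 99.6. *Pklr* per kilobase was 4.71% of this in the table of shRNA 1 and 5.93% in that of shRNA 2, log2 ratios of -4.41 and -4.08. Of the hexokinases, which phosphorylate glucose in most tissues, *Hk1* had 68.5 and 67.4 per kilobase, *Hk2* 5.18 and 7.43, and *Hkdc1* 0.578 and 0.732, while *Hk3* was not listed.

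The authors kept uniquely mapped pairs, so pairs without a unique place in the genome are lost. As a rough guide to where this may matter, the longest coding transcript of each gene was cut into 32-base words. The share that also occurs outside the gene in the genome was counted. Whole read pairs were mapped, not 32-base words, so this share does not measure how many reads were lost. For the 8 members it was at most 4.29%, the value of *Gckr*. It was 3.68% in *Pygl*, 0.662% in *Pklr*, and 0% in *Khk*, *G6pc* and *Fbp1*. The share of recurring sequence was thus low in the 3 genes with values and in the 5 without. In *Pkm* it was 62.6%, in *Pgk1* 94.0%, in *Pgam1* 93.9% and in *Gapdh* 85.8%. *Gapdh*, a very abundant mRNA in most cells, had means of 112.6 and 125.2, while *Pgk1* and *Pgam1* had 3286 and 2604 in the table of shRNA 1. A high share thus did not go with a low mean in each gene, and levels of such genes are uncertain here. The same means were also divided by the number of words that do not recur, a choice made after the data were seen. The log2 ratio of *Pklr* to *Pkm* was then -5.77 and -5.44. Only the length changed, and no reads were counted over those words alone.

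**Figure D2:**
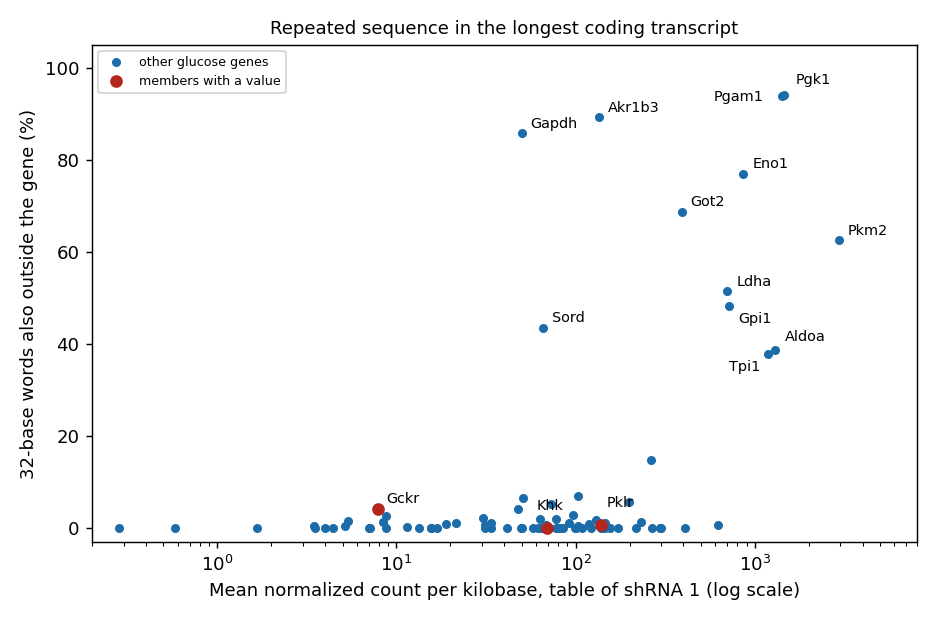
Share of 32-base words of the longest coding transcript that also occur outside the gene (percent) against the mean normalized count per kilobase in the table of shRNA 1 (log scale), for members with a value (red) and the other glucose genes (blue). *Gckr*, *Khk* and *Pklr* lie at 4.29% or less, while *Pgk1*, *Pgam1*, *Akr1b3* and *Gapdh* lie above 80%.

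By the titles the 2 tables share the control libraries, although the descriptions of only 1 of the 3 controls name the table of shRNA 2 and those of the other two name tables of further hairpins. If the controls were shared, what differs between their means, once they are on 1 scale, comes from the libraries with shRNA 1 and those with shRNA 2 and from the scaling itself. The median gene had a log2 ratio of -0.07 between the tables (13259 genes in both), and this was removed. *Pklr* then had a log2 ratio of -0.25, a mean 19.0% higher in the table of shRNA 2 (533.6 after scaling against 448.2). Among 2260 genes with a mean within 1.5-fold of its own, 5% lay below -0.22 and 5% above 0.25, and *Pklr* stood at percentile 3.32. Suppose each table averaged the same 3 control libraries and 3 hairpin libraries, and the median ratio put the controls on 1 scale. The mean of the shRNA 2 libraries then exceeded that of the shRNA 1 libraries by 170.7 normalized counts. Which of them lay nearer to the control cells is not given by these means.

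*Gckr* lay the other way, with a log2 ratio of 0.37 and a mean 29.1% higher in the table of shRNA 1 (15.8 against 12.2 after scaling). Genes with so few reads vary more between the tables. The middle 90% of 953 genes of similar mean spanned -0.65 to 0.48, and *Gckr* stood at percentile 91.2, inside that span. Under the same assumptions there were 7.12 normalized counts more in the shRNA 1 libraries than in the shRNA 2 libraries. *Khk* had a log2 ratio of -0.03, at percentile 40.6 of 2348 genes, and its scaled means of 116.2 and 118.6 were nearly equal. No replicate spread was used, so whether any of the 3 differences exceeds the spread between libraries was not tested.

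**Figure D3:**
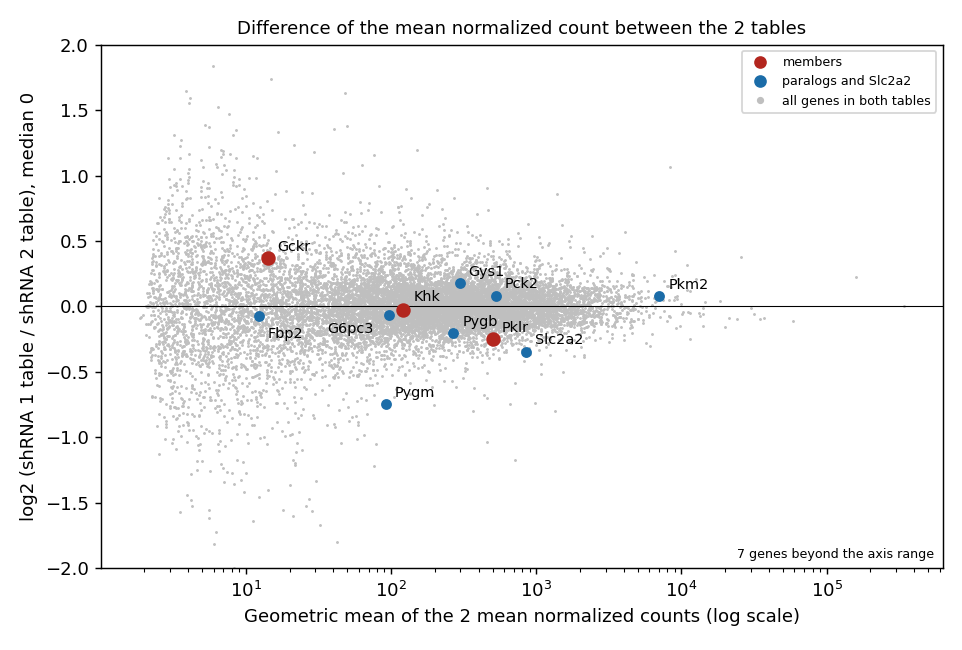
Log2 ratio of the mean normalized count in the table of shRNA 1 to that of shRNA 2, with the median of all genes set to 0, against the geometric mean of both (log scale); grey points are the 13259 genes in both tables, red the 3 members and blue their paralogs and *Slc2a2*. *Pklr* lies at -0.25, *Khk* at -0.03 and *Gckr* at 0.37, where low genes scatter widely.

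Among the paralogs, *Pygm* had the largest difference, a log2 ratio of -0.74 with means of 68.9 and 121.6 before scaling, at percentile 0.188 of 2129 genes of similar mean. *Pygb* had -0.20, *Gys1* 0.18, *Pck2* 0.08, *Pkm* 0.08, *G6pc3* -0.06 and *Fbp2* -0.07. *Pygb* stood at percentile 6.59, inside the middle 90% of -0.24 to 0.25 among genes of similar mean, and *Pygm* lay outside its own.

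The other genes of the pathway were taken from lists written by hand. Of 20 glycolysis genes, 18 were in both tables with a median of 112.7 per kilobase in that of shRNA 1, and 13 of the 18 lay above the median of protein-coding genes. *Pgk1*, *Pgam1* and *Aldoa* were highest, at 1464, 1422 and 1304 per kilobase in the table of shRNA 1, and *Ldhb* and *Pgam2* were not listed. The gluconeogenesis list leaves out the 8 members and their paralogs and does not hold all the rest of the pathway. All 8 of its genes were in both tables, with a median of 247.5, led by *Mdh2* (626.8), *Got1* (409.0) and *Got2* (390.2). These are enzymes of the malate and aspartate exchange that serve other routes too. In *Got2* 68.7% of the 32-base words recur outside the gene, so its level is uncertain. *Pcx*, the pyruvate carboxylase that opens gluconeogenesis, had 80.3 and 60.5 per kilobase, and *Slc37a4*, the carrier that brings glucose 6-phosphate to G6pc, had 66.3 and 66.0.

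Of 6 genes of fructose and polyol metabolism, 5 were listed. *Dak*, the triokinase of fructose breakdown, had 139.5 and 126.1 per kilobase. *Akr1b3*, an aldose reductase, had 135.4 and 131.9, and both stood above *Khk*. In *Akr1b3* 89.3% of the 32-base words recur outside the gene, so its level is uncertain. *Slc2a5*, the fructose carrier, was not listed. Of 18 glycogen genes 17 were listed, with a median of 61.8 per kilobase in the table of shRNA 1. *Gsk3a*, a kinase that acts on glycogen synthase, *Ugp2*, which makes UDP-glucose, and *Gaa*, the lysosomal glucosidase, were highest at 264.2, 218.4 and 146.6. *Ppp1r3g*, a glycogen-targeting subunit of a phosphatase, was not listed. The median log2 ratio between the tables was 0.08 for the glycolysis list, 0.07 for gluconeogenesis, 0.03 for fructose and polyol and 0.00 for glycogen, where that of all genes is 0 by the scaling.

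Of 7 glucose carriers, 4 were in both tables and *Slc2a3* was in that of shRNA 1 alone. *Slc2a2*, the hepatocyte glucose carrier, had the highest level, at 265.5 and 354.9 per kilobase, followed by *Slc2a1* (142.3 and 122.9) and *Slc2a8* (15.5 and 14.9). *Slc2a4* and *Slc2a10* were not listed. The log2 ratio of *Slc2a2* between the tables was -0.35, at percentile 0.664 of 1657 genes of similar mean, so this carrier too was higher in the table of shRNA 2. Of 20 regulators 19 were listed. *Hnf4a*, a hepatocyte transcription factor, had 298.4 and 323.6 per kilobase, *Sik1*, a kinase that restrains gluconeogenic transcription, 232.8 and 257.2, and *Cebpb*, a transcription factor, 146.4 and 129.3. *Mlxipl*, whose element lies in the *Pklr* window shown above, had 33.6 and 38.0, and its partner *Mlx* 85.3 and 86.8. *Gcgr*, the glucagon receptor, was not listed.

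**Figure D4:**
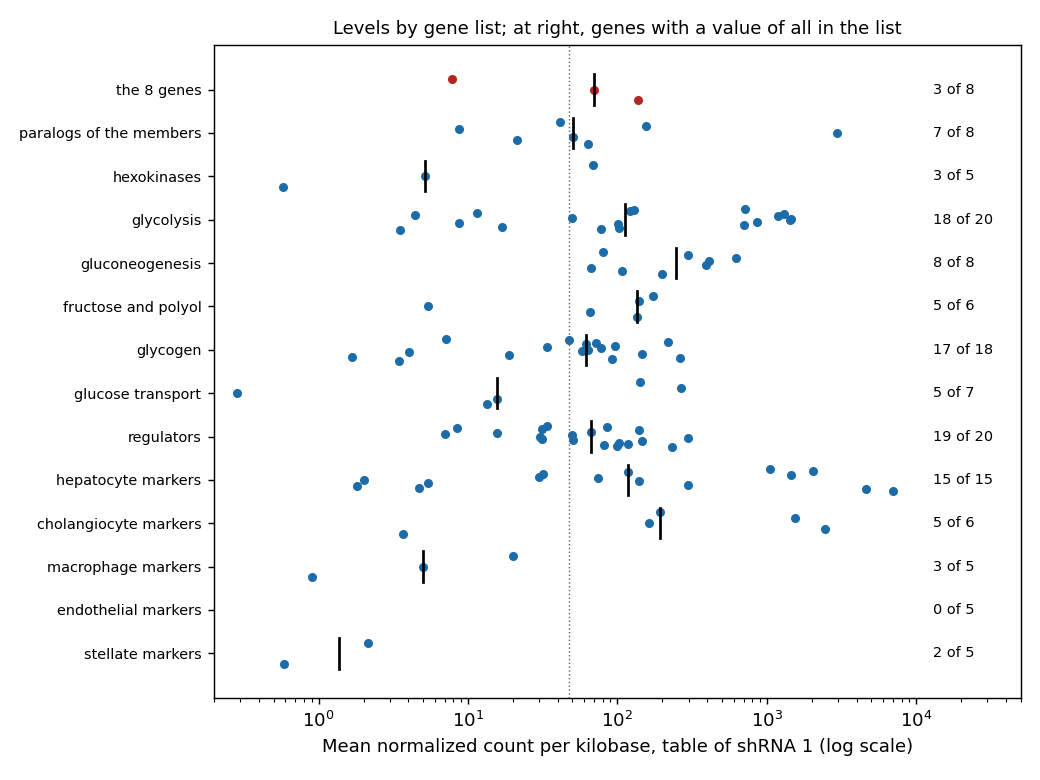
Mean normalized count per kilobase in the table of shRNA 1 (log scale) for each gene with a value, by list, with the list median as a bar, the median of listed protein-coding genes as a dotted line, and at right the number with a value of all genes in the list. The 8 genes have 3 values, and the gluconeogenesis list lies wholly above the dotted line.

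The label of the cells was set against markers. All 15 hepatocyte markers were listed, with *Krt18*, *Krt8* and *Ttr* highest at 7034, 4594 and 2049 per kilobase in the table of shRNA 1. Of the 15, 9 lay above the median of protein-coding genes, among them *Apob* (1449), *Alb* (1053), *Serpina1a* (139.8) and *Fgb* (74.1). The lowest were *Cps1* (4.71), *Fgg* (2.01) and *Tat* (1.82). In *Krt8* 65.7% and in *Serpina1a* 74.4% of the 32-base words recur outside the gene, so the levels of these markers are uncertain. Of 6 cholangiocyte markers 5 were listed. *Spp1* (2448), *Krt19* (1537), *Krt7* (191.6) and *Sox9* (162.0) were high, *Cftr* was low at 3.68, and *Epcam* was not listed. Of 5 macrophage markers 3 were listed, with *Cd68* highest at 23.7 per kilobase in the table of shRNA 2, and *Emr1* and *Clec4f* were not. None of 5 endothelial markers (*Pecam1*, *Kdr*, *Stab2*, *Cdh5* and *Tek*) was listed. Of 5 stellate markers *Des* (2.14) and *Col1a1* (0.587) were listed, and *Lrat*, *Acta2* and *Pdgfrb* were not. How the state of the line bears on the 8 genes was not tested.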

How the data were processed

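RNA of 9 AML12 libraries (3 control, 3 shRNA 1, 3 shRNA 2, grouped by title) was analysed from the 2 deposited tables. Per the study's methods and the submitters' processing notes, reads were trimmed, mapped to mm9 with TopHat2, kept where pairs were unique, assigned by HTSeq to genes of GENCODE M1, and analysed in DESeq2 version 1.8.2. The signal used is the authors' deposited mean normalized count of each gene, pooled over control and hairpin libraries. The authors' tables also hold their own fold changes, standard errors, statistics and p-values, which were not used. Depth per library and replicate error are therefore unknown, and no test was run.

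Gene identifiers were matched to GENCODE M1 (NCBIM37, the assembly of mm9). Means were divided by merged exon length and ranked among listed protein-coding genes. Tables were normalized separately by the authors, and were scaled to each other by the median ratio of the genes in both. The members and lists were chosen with earlier results of these data known. Named are the members by role, their paralogs, and from each list the 3 highest genes per kilobase and those not listed, except that some genes of the lists are not reported here. Other genes (*Hcn3*, *Pcx*, *Slc37a4*, *Mlxipl*, *Mlx*, *Alb*, *Apob*, *Serpina1a*, *Fgb*, *Fgg*, *Tat*, *Cps1*, *Gapdh*, *Slc2a3* and those under other observations) were named after their values were seen. *Sox9* and *Cftr* were also named after their values were seen. The computation of the scaling and of the count of recurring 32-base words was checked on made-up data with known answers. Those for the scaling held no noise, so they do not show how well it suits the 2 tables. Alternatives were other lengths, other reference genes, other scalings and a mean of 10 or more. A level or ratio was counted as moved from 1.5-fold, and a percentile from 10 points. Python 3.11.15, numpy 2.4.6, pandas 2.3.3 and matplotlib 3.10.9 were used.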

Additional observations from a re-analysis of the deposited data

How the results depend on the processing

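No paired analysis was possible because the columns used are means over libraries and carry no replicate number, and for the same reason no replicate was left out and no value has an error. Of 67 alternative values, 56 stayed within the limits set and 11 moved. A change of direction could be counted only for log2 ratios, and 0 of these changed direction. Coding length alone raised *Khk* to 129.5 and 139.2 per kilobase and *Pklr* to 274.7 and 344.1, in the tables of shRNA 1 and shRNA 2. Without division by length *Khk* stood at percentiles 41.7 and 42.7, below the median of protein-coding genes, where per kilobase it stood above it. Leaving recurring words out of the length moved the log2 ratio of *Pklr* to *Pkm* to -5.77 and -5.44, an alternative chosen after seeing the data. Keeping genes with means of 10 or more left 2 hexokinases, 2 macrophage markers and 0 stellate markers. The same cut left 12 of 15 hepatocyte markers and 15 of 17 glycogen genes, both within the limits set. The scalings shifted the log2 ratio between tables by at most 0.07. The pooled means limit all statements to levels over control and knockdown cells together.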

Other observations

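Among the enzymes that make and remove fructose 2,6-bisphosphate, a signal that sets glycolysis against gluconeogenesis in liver, *Pfkfb2* had the largest difference between the tables. Its means were 1055 and 717.1 in the tables of shRNA 1 and shRNA 2 before scaling, a log2 ratio of 0.63, the highest of the 18 glycolysis genes in both tables. The middle 90% of 1605 genes of similar mean spanned -0.20 to 0.23. *Pfkfb4* had 14.5 and 20.7, a log2 ratio of -0.44 inside the span of -0.64 to 0.46 for genes of its mean. *Pfkfb1*, the liver form, had 67.9 and 67.2 (0.09) and *Pfkfb3* 548.1 and 590.5 (-0.03), both inside their spans. Of the phosphofructokinases on which this signal acts, *Pfkp* had a log2 ratio of -0.59 (span -0.25 to 0.31) and *Pfkl* -0.24 (span -0.21 to 0.24), and *Pfkm* at 0.13 lay inside its span of -0.22 to 0.25.

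*Pcx* had a log2 ratio of 0.48, the highest of the gluconeogenesis list, with means of 343.1 and 258.4 before scaling and a span of -0.23 to 0.25 for genes of similar mean. The glucocorticoid receptor gene *Nr3c1*, through which the dexamethasone in the medium acts, had means of 763.4 and 636.1 and a log2 ratio of 0.34, the highest of the 19 regulators in both tables. Its span was -0.20 to 0.24. None of these differences was tested, since only the pooled means were used.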
